A study of Rattus norvegicus with 6 samples.

Results

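The cytosolic ribosomal protein genes were examined in rat neural stem/progenitor cells (rNSPCs) cultured on carbon films of different conductivity. Members were taken by symbol, as rows named Rpl or Rps followed by a number and at most 1 letter, with Rplp0, Rplp1, Rplp2, Rpsa and Rpl22l1 added. Ribosomal S6 kinases, mitochondrial ribosomal proteins and ribosomal RNA were left out. This gave 101 of the 17048 rows in each deposited table, or 81 of 16881 symbols, with 37 rows for the small (40S) subunit and 64 for the large (60S) subunit. Of these rows, 99 had enough counts to be tested among 7731 rows tested in all. The other two were Rpl39l, with 0 counts in all 6 libraries, and Rpl3l, whose 88 counts all came from High replicate 1. Both are paralogues of a member that was counted in every library.

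The rNSPCs were isolated from the embryonic telencephalon of Sprague-Dawley rats, are labelled as wild type, and were kept for 24 h in medium that maintains stemness, so all groups share these conditions. They grew on films of carbon nanotubes with graphene oxide nanoribbons, which differ in conductivity and are named High, Medium and Low, with 2 libraries for each film. The paper set this conductivity by the duration of oxidation. In its adhesion assays, the poly-D-lysine coat under laminin differed between films, to match the amount of laminin. Its sequencing methods do not name a coat. The comparison asks whether the transcript profile of the cells depends on the conductivity of the film. QuantSeq libraries were sequenced, which capture the 3′ end of polyadenylated transcripts, and the counts are therefore not corrected for gene length. Nothing in the labels says that the 2 libraries of a film came from separate cultures, so the tests measure the spread between these libraries, which may be technical, and a film cannot be told apart from how its libraries were prepared.

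The cell label was checked against 10 markers of neural stem and progenitor cells, of which 7 had counts in every library, while Msi1 and Hes5 had 0 counts throughout. Summed over the list, these markers reached 3461 to 3696 CPM (counts scaled for the size of the library) in High and 4578 to 6050 CPM in Medium and Low, without overlap. Vim had the most counts of the list in every library, so it weighs most in this sum. Vim, Nes, Sox2 and Slc1a3 had more counts in each Medium and Low library than in High, whereas Fabp7, Hes1, Pax6 and Mki67 overlapped. Markers of neurons summed to at most 40.6 CPM and those of microglia to at most 8.49 CPM in any library, with Rbfox3, Itgam, Csf1r and Cx3cr1 at 0. Markers of the oligodendrocyte lineage summed to 390 to 448 CPM in High and 625 to 895 CPM in Medium and Low. Meningeal and vascular markers summed to 389.8 CPM in Medium replicate 2 and at most 45.0 CPM elsewhere. The sum in Medium replicate 2 came from Col1a1 alone (2005 counts). Col1a2, Dcn, Pecam1, Cldn5 and Pdgfrb had 0 counts in that library. The part of these differences in the values below was not tested.

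Each cytosolic ribosome carries a single copy of most of these proteins, and their transcripts are among the most abundant in growing cells. Their mRNAs typically begin with a cytosine followed by an unbroken run of pyrimidines, the 5′ terminal oligopyrimidine (TOP) motif, through which mTOR and the binding protein LARP1 control their translation. Much of the regulation of this family is translational, which mRNA counts do not measure. In neural progenitors, ribosome production is tied to growth and proliferation, and free Rpl5 and Rpl11 bind the ubiquitin ligase Mdm2 when ribosome assembly is disturbed.

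The annotated starts of these genes were searched for the TOP motif. Promoter sequences came from RefSeq on the GRCr8 assembly, which is not the assembly used for the counts, and 65 of the 81 member symbols had a single entry. A tract was called where the first transcribed base was C and at least 4 further bases were C or T, on the strand of the gene. It was present in 24 of the 65 members (36.9%) and in 2.63% of the 33469 promoters in the table. A longer run, of at least 8 C or T bases within 20 bases of the start, was present in 46 of the 65 (70.8%) and in 15.5% of all promoters. The tract rule needs C at the exact annotated start, so a start annotated a few bases off could be scored as lacking a tract. Rps23, Rpl27a and Rpl29 had no tract by this rule, but runs of 21, 20 and 18 bases near the start. The windows below hold 5 bases before the start and 20 from it, with the tract in capitals, and show 3 paralogue pairs, the 2 members with the lowest fold changes, Rplp0 as a marker of the family and Rpl31 for its long tract.
Rpl22, chr5:168117956-168117980, plus strand: cccctCCCTTTCTgcctcctctgcc
Rpl22l1, chr2:113683191-113683215, plus strand: tatccggttccgagttgcgcagcgc
Rps27, chr2:177964587-177964611, minus strand: tcgctCCTTTCCggcggtgacgacc
Rps27l, chr8:76443653-76443677, plus strand: ttgtcattatttgtggtgtccagag
Rpl36a, chrX:102059444-102059468, plus strand: acttccgttgctgctctagcctctc
Rpl36al, chr6:93392239-93392263, minus strand: gctccatccgtccctttcctgttcg
Rpl14, chr8:129163615-129163639, plus strand: tctccCTTCTCgctgagcgccgcca
Rpsa, chr8:128728874-128728898, plus strand: ctaccctggaacgggtccgtacggc
Rplp0, chr12:46718371-46718395, minus strand: cacttCTCTCgccaggcgtcctcat
Rpl31, chr9:49143106-49143130, plus strand: tcgcgCCTTTCCTTTCCaacttggg
The printed Rpl22 and Rps27 starts carry a tract and those of their paralogues Rpl22l1 and Rps27l do not, whereas neither Rpl36a nor Rpl36al has one. The tract of Rpl31 spans 12 bases, the greatest length found among the members, which Rpl10 and Rpl37a share. The 24 members with a tract had log2 fold changes for Low and Medium against High with a median of 0.07 and quartiles of −0.11 and 0.28. The 39 members without one that could be tested had a median of 0.01 and quartiles of −0.16 and 0.21, so these ranges overlapped.

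The libraries held between 5124863 and 6213676 counts. Rows of ribosomal RNA took 26.1% and 38.4% of the counts on the High film, but 7.16% to 13.0% in the 4 other libraries. These 7 rows were left out of the library sizes and the tests. The number of rows with a count ran from 5355 in Medium replicate 1 to 7809 in Medium replicate 2. After the ribosomal RNA rows were removed, the TMM factors, which correct for composition, lay between 0.971 and 1.04.

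Together the ribosomal protein rows made up between 12.6% and 15.0% of the counts without ribosomal RNA, and the films overlapped. The High libraries had shares of 13.6% and 12.6%, the Medium libraries of 15.0% and 13.1%, and the Low libraries of 13.5% and 13.4%. Medium replicate 1 held the highest share and High replicate 2 the lowest, and the 2 Low libraries were nearly equal. The means were 13.1% ± 0.710 for High, 14.1% ± 1.28 for Medium and 13.5% ± 0.0799 for Low (SD, n = 2). The mean over Low and Medium exceeded that of High by 0.648 percentage points, against a pooled SD within films of 0.847 percentage points. Counting error was far smaller than this spread, with a 95% exact Clopper-Pearson interval of 13.6% to 13.7% for High replicate 1, which covers counting error only because PCR reads without molecular identifiers are not independent molecules. Counts per row are relative to the library, so fewer cells of a type and less RNA per cell cannot be told apart in these bulk samples.

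**Figure D1:**
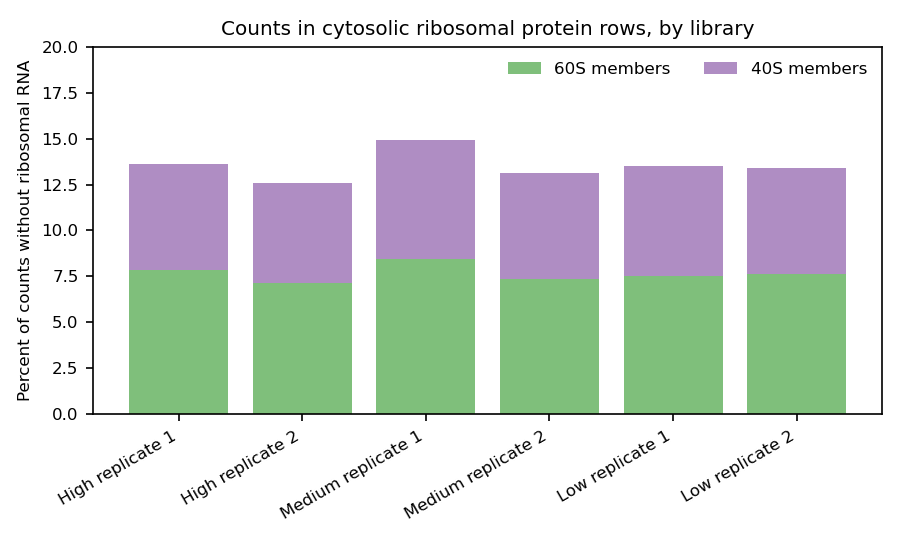
Stacked bars give the percent of counts without ribosomal RNA that fell in 40S and 60S ribosomal protein rows in each of the 6 libraries. The totals lie between 12.6% and 15.0%, and the bars of the 3 films overlap.

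The 40S rows held 5.47% to 6.51% of the counts and the 60S rows 7.15% to 8.45%, so the subunits kept a similar proportion in all libraries. The difference between films depended on the denominator. With ribosomal RNA kept in the total, the High libraries had shares of 10.1% and 7.77%, the Medium libraries of 13.9% and 11.4%, and the Low libraries of 12.6% and 12.4%. Both High libraries then lay below all others, a difference of 3.65 percentage points between High and the mean of Low and Medium. Both calculations have the same numerator and differ only in whether the ribosomal RNA rows are in the total.

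No ribosomal protein row passed the test between films. In Low and Medium against High, 0 of the 99 rows had an adjusted p under 0.05 (quasi-likelihood test of edgeR, adjusted by Benjamini-Hochberg), where 0.0905% of all rows tested did, and the smallest adjusted p was 0.449, for Rps27l. At an unadjusted p under 0.05 there were 10 rows (10.1%), beside 5.51% of all rows tested and 18.8% of the abundant rows. Of these 10, 7 were higher and 3 lower in Low and Medium, where 2.68% and 2.83% of all rows were. By DESeq2, 5 rows were called (Rps27l, Rpl11, Rpsa, Rpl22 and Rpl14), where it called 4.64% of all rows, and limma-voom called Rps27l alone, where it called 0.336% of all rows. The abundant rows are the 1040 rows, members included, with a mean of at least 210 CPM, the mean of the least abundant member tested. They share this lower bound with the members but are not matched to them in abundance.

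The median log2 fold change of the 99 rows was 0.06, with 62 rows above 0 and 37 below. Over all rows tested the median was −0.13, and over the 1040 abundant rows it was 0.08. The middle range of the members, from the lower to the upper quartile, was −0.11 to 0.25. In all, 91 rows (91.9%) lay within 1.5-fold of equality, compared with 34.7% of all rows and 67.0% of the abundant rows. The 40S rows had a median of 0.08 and the 60S rows of 0.06. The extremes were Rpsa, at −0.75, and Rpl22l1, at 0.998.

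**Figure D2:**
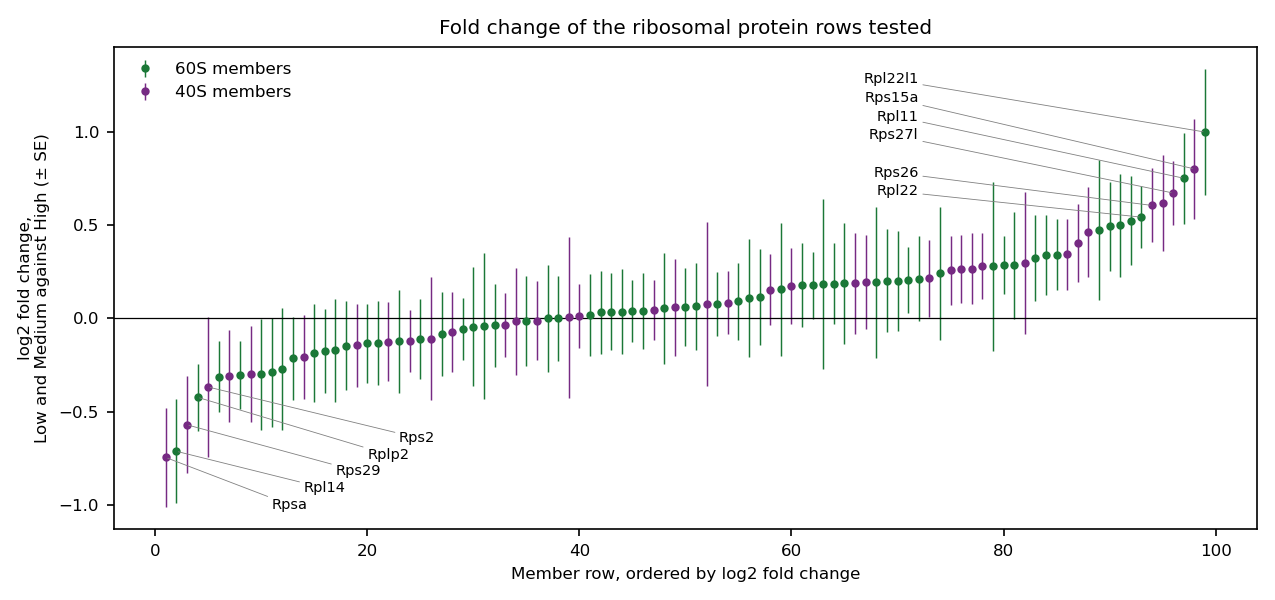
The log2 fold change of Low and Medium against High (vertical axis) is plotted for each of the 99 rows tested in ascending order, with bars of ± 1 SE from edgeR and colours for the subunits. Most rows lie close to 0, the lowest 5 and 6 of the highest 7 are named, and the ends reach −0.75 for Rpsa and 0.998 for Rpl22l1.

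The separate films gave similar values, which share the High libraries. For Low against High the median log2 fold change was 0.08 and 93 rows lay within 1.5-fold, with 0 rows called by edgeR (0.0259% of all rows) and 6 at an unadjusted p under 0.05 (4.24% of all rows). For Medium against High the median was 0.11 and 88 rows lay within 1.5-fold, with 0 rows called by edgeR (0.0129% of all rows) and 9 at an unadjusted p under 0.05 (4.06% of all rows). By DESeq2 the calls were 1 and 6 rows, where it called 4.04% and 4.18% of all rows, and by limma-voom 1 and 0 rows, where it called 0.246% and 0.194%. For Low against Medium the median was −0.06 and 98 rows lay within 1.5-fold. There edgeR had 0 members at an unadjusted p under 0.05, beside 1.57% of all rows, and edgeR, DESeq2 and limma-voom each called 0 members, where DESeq2 called 1.65% of all rows and the other tools 0%.

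The P stalk, formed by Rplp0, Rplp1 and Rplp2 on the large subunit, recruits the elongation factors. Rplp0 stood at 1622 and 1331 CPM in High, 994 and 1545 CPM in Medium, and 1555 and 1246 CPM in Low, where CPM is normalized by TMM here and from this point on. The films overlapped. Rplp1 was at 4979 and 3569 CPM in High, 3476 and 3486 CPM in Medium, and 5224 and 3021 CPM in Low, with the highest and the lowest value both in Low. Rplp2 was at 2683 and 2786 CPM in High, 1813 and 1870 CPM in Medium, and 2599 and 1918 CPM in Low. Both High libraries were above the other 4 for Rplp2, though Low replicate 1 came close. The log2 fold changes of Low and Medium against High were −0.15 ± 0.237 for Rplp0, −0.17 ± 0.226 for Rplp1 and −0.42 ± 0.181 for Rplp2 (SE), and edgeR gave Rplp2 an adjusted p of 0.803.

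Rpl5 and Rpl11 join the 5S ribosomal RNA in a particle that is built into the large subunit, and the pair differed in these libraries. Rpl5 was at 1142 and 957 CPM in High, 1121 and 911 CPM in Medium, and 943 and 1231 CPM in Low. The films overlapped fully, with a log2 fold change of 0.0017 ± 0.228 (SE). Rpl11 was at 1003 and 663 CPM in High, 1567 and 1526 CPM in Medium, and 1109 and 1433 CPM in Low. All 4 Low and Medium libraries were above both High libraries for Rpl11, by a log2 fold change of 0.75 ± 0.244 (SE), with an adjusted p of 0.714 by edgeR and of 0.0241 by DESeq2. Whether Rpl11 and Rpl5 differ in their fold change was not tested.

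On the 40S subunit, Rps6, the classical substrate of the S6 kinases downstream of mTOR, stood at 2635 and 2259 CPM in High, 2513 and 2408 CPM in Medium, and 2274 and 2689 CPM in Low. The films overlapped, with a log2 fold change of 0.01 ± 0.172 (SE). Rpsa, a component of the 40S subunit also known as the laminin receptor, was at 1320 and 1230 CPM in High, 581 and 973 CPM in Medium, and 614 and 874 CPM in Low. Both High libraries lay above the other 4, by a log2 fold change of −0.75 ± 0.266 (SE) for Low and Medium against High, with an adjusted p of 0.803 by edgeR and 0.0241 by DESeq2. Gnb2l1, the rat symbol in these tables for Rack1, a scaffold bound to the 40S head, is not a member by symbol. It was at 2173 and 1609 CPM in High, 1003 and 1277 CPM in Medium, and 1002 and 1387 CPM in Low, again with both High libraries above the others. Its log2 fold change was −0.70 ± 0.228 (SE), with an adjusted p of 0.727 by edgeR and 0.00656 by DESeq2.

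Among other ribosomal proteins with roles beyond the core, Rps27a, which is made as a fusion with ubiquitin, stood at 1295 and 1122 CPM in High, 1886 and 1545 CPM in Medium, and 1309 and 1671 CPM in Low. Low and Medium were all above High, by a log2 fold change of 0.40 ± 0.211 (SE), although Low replicate 1 exceeded High replicate 1 by little. Rps3, which also has a role in DNA repair, had a log2 fold change of 0.26, and Rpl13a, known for translational silencing in inflammation, one of 0.24, and the films overlapped for both. For Rpl13a, Medium replicate 1 stood at 1290 CPM and the other 5 libraries at 499 to 697 CPM. Rpl3, close to the peptidyl transferase centre, had a log2 fold change of −0.04, and Rpl10, which is added late in 60S assembly, one of −0.13. Rps14 and Rps19, known from inherited and acquired anaemias, had values from −0.04 to 0.08 over their 4 rows. Fau, which encodes the 40S protein Rps30 fused to a ubiquitin-like protein, had −0.26, and its films overlapped.

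The members with the highest and the lowest fold changes included several with all 4 Low and Medium libraries on 1 side of High. Rpl22l1, a paralogue of Rpl22, was at 236 and 390 CPM in High, 868 and 641 CPM in Medium, and 426 and 613 CPM in Low. Medium was the highest film, and Low replicate 1 lay just above High replicate 2. Its log2 fold change was 0.998 ± 0.338 (SE), with an adjusted p of 0.759 by edgeR and 0.0563 by DESeq2.

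Rps15a, of the 40S subunit, was at 582 and 766 CPM in High, 1625 and 995 CPM in Medium, and 1029 and 1074 CPM in Low, for a log2 fold change of 0.80 ± 0.266 (SE). Its value in Medium replicate 1 stood above all the others. Rps27l, a paralogue of Rps27, was at 2184 and 2044 CPM in High, 3652 and 2860 CPM in Medium, and 3395 and 3567 CPM in Low. All 4 Low and Medium libraries were clearly above High, with a log2 fold change of 0.67 ± 0.172 (SE) and the lowest p of the family, 0.00302 unadjusted and 0.449 adjusted by edgeR, 0.00506 adjusted by DESeq2 and 0.0278 adjusted by limma-voom.

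Rpl22 was at 3446 and 3161 CPM in High, 5601 and 4643 CPM in Medium, and 3999 and 5038 CPM in Low. All 4 Low and Medium libraries were above High, by a log2 fold change of 0.54 ± 0.167 (SE), with an adjusted p of 0.659 by edgeR and 0.0409 by DESeq2. Rps26, near the mRNA exit of the small subunit, was chosen after its values were seen. It was at 1764 and 2153 CPM in High, 3570 and 2505 CPM in Medium, and 2859 and 2985 CPM in Low, with a log2 fold change of 0.60 ± 0.198 (SE).

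At the low end, Rpl14, a 60S protein, was at 1151 and 1019 CPM in High, 437 and 758 CPM in Medium, and 615 and 853 CPM in Low. Both High libraries lay above the others, and Medium replicate 1 was the lowest, for a log2 fold change of −0.71 ± 0.279 (SE), with an adjusted p of 0.803 by edgeR and 0.0475 by DESeq2. Rps29, a zinc-binding 40S protein, was at 1993 and 2138 CPM in High, 1064 and 1624 CPM in Medium, and 1825 and 1052 CPM in Low. The libraries of 1 film differed here by as much as the films, and the log2 fold change was −0.57 ± 0.259 (SE). Rps2 was at 464 and 363 CPM in High, 241 and 360 CPM in Medium, and 438 and 246 CPM in Low, with films that overlapped and a log2 fold change of −0.37 ± 0.375 (SE).

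**Figure D3:**
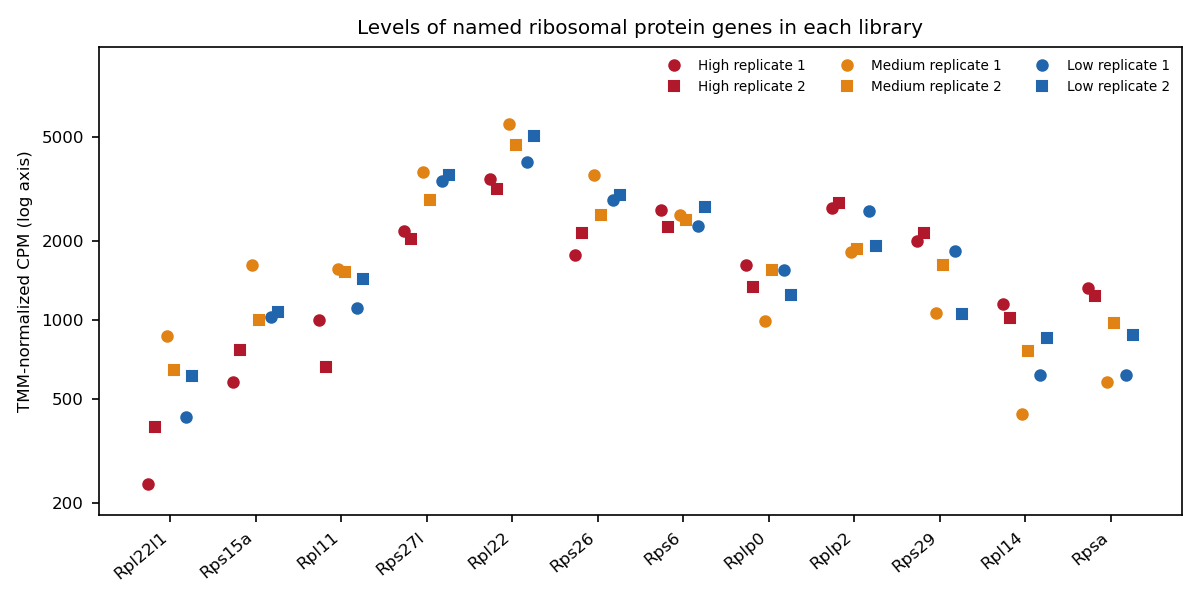
Levels in TMM-normalized CPM (vertical log axis) are shown for 12 ribosomal protein genes in each of the 6 libraries, with colours for films, circles for replicate 1 and squares for replicate 2. For Rps27l and Rpl22 the 4 Low and Medium points lie above both High points, for Rpsa and Rpl14 they lie below, and for Rps6 and Rplp0 the films overlap.

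Counted over the family, 18 of the 99 rows had all 4 Low and Medium libraries above both High libraries (18.2% of rows), 6 had all 4 below (6.06%), and 75 overlapped. Over all rows tested, 7.93% were above and 10.2% below, and over the 1040 abundant rows 18.8% and 12.2%. The members' share above was thus near that of the abundant rows, which are not matched to them in abundance. The 6 rows below included Rpsa, Rpl14, Rps29, Rplp2 and Rpl6, of which Rpl6, named after its values were seen, had a log2 fold change of only −0.13. The 18 rows above included 3 rows of Rpl9. Single libraries moved the count. Without High replicate 1 there were 47 rows above, where 16.9% of all rows were, and without High replicate 2 there were 24 rows below, where 23.1% of all rows were. For a single gene, the exact permutation test (two-sided, on the size of the difference) has a smallest p of 0.0667 in this design.

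Several members have a paralogue that can take their place in the ribosome, and the ratio of their counts within a library does not depend on the scaling. For each Rps27 count, the High libraries had 1.18 and 1.22 Rps27l counts, the Medium libraries 1.80 and 1.24, and the Low libraries 1.79 and 1.60. All 4 Low and Medium ratios were above High, but that of Medium replicate 2 by little. The geometric mean over Low and Medium was 1.32-fold that of High, with a two-sided exact permutation p of 0.133 (0.2 after Benjamini-Hochberg adjustment over the 3 pairs). Rps27 itself was also above High in all 4 libraries, with a log2 fold change of 0.27.

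Rpl36al, an autosomal paralogue of the X-linked Rpl36a, falls outside the symbol rule. For each Rpl36a count, the High libraries had 1.11 and 1.41 Rpl36al counts, the Medium libraries 2.86 and 1.90, and the Low libraries 2.72 and 2.38. These ratios did not overlap between High and the other films, for a 1.94-fold higher ratio in Low and Medium and a two-sided exact permutation p of 0.0667 (0.2 adjusted), the smallest unadjusted p these 6 libraries can give. The level of Rpl36al was 310 and 461 CPM in High, 875 and 792 CPM in Medium, and 735 and 851 CPM in Low, with a log2 fold change of 1.08 ± 0.279 (SE) and an adjusted p of 0.449 by edgeR and 0.00186 by DESeq2. Rpl36a overlapped between films, with a log2 fold change of 0.15 ± 0.355 (SE).

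For each Rpl22 count, the High libraries had 0.0686 and 0.124 Rpl22l1 counts, the Medium libraries 0.155 and 0.138, and the Low libraries 0.106 and 0.122. High replicate 2 lay above both Low libraries, so these ratios overlapped, with a 1.40-fold difference and a two-sided exact permutation p of 0.267 (0.267 adjusted). No ratio can pass 0.05 in this design. For Rpl3l and Rpl39l, a floor of 3 counts was set, which is 0.531 to 0.873 CPM in these libraries. A count of 0 does not bound the level there, since Rpl3l had 88 counts in High replicate 1 and 0 in High replicate 2.

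**Figure D4:**
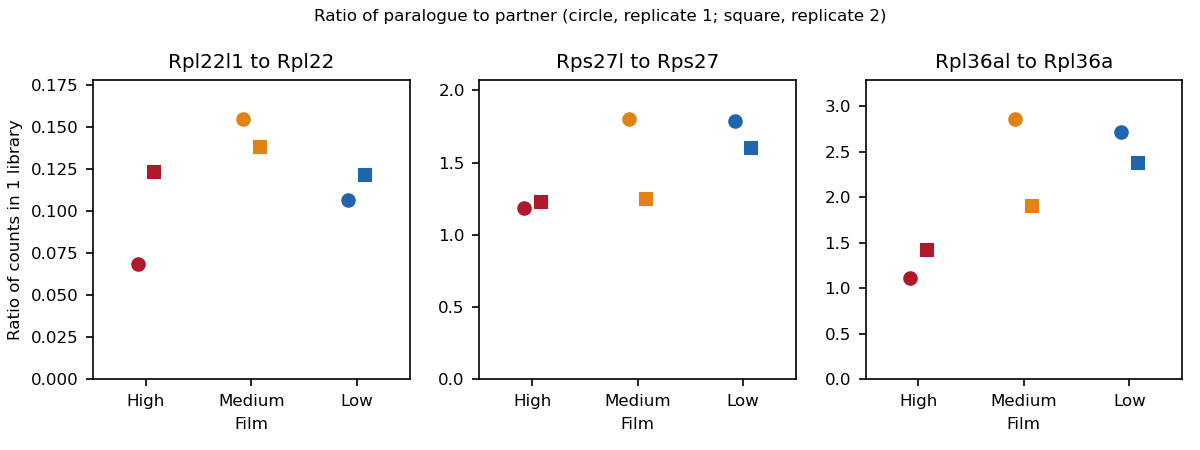
Each panel gives, for 1 paralogue pair, the ratio of counts of the paralogue to its partner (vertical axis, from 0) in the libraries of the High, Medium and Low films, with circles for replicate 1 and squares for replicate 2. For Rpl36al to Rpl36a, High lies at 1.11 and 1.41 and the other films at 1.90 to 2.86, and for Rpl22l1 to Rpl22 the films overlap.

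Ribosomal protein rows were measured with little spread between libraries of a film. The median absolute log2 ratio of replicates was 0.24 in High, 0.27 in Medium and 0.25 in Low, compared with 1.01, 1.54 and 1.03 over all rows tested and 0.33, 0.43 and 0.40 over the abundant rows. Only 1 row in each film differed by more than 2-fold between replicates. Rpl3l in High was the sole member row with 0 counts in 1 library and at least 50 in the other, where 1420, 2084 and 1408 of all rows showed this in High, Medium and Low. The fewest counts of any tested member in any library was 577.

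The order of abundance within the family was kept across libraries. Over the 99 rows, Spearman's rho was 0.937 to 0.958 between libraries of the same film, 0.926 to 0.965 between Low and Medium libraries, and 0.875 to 0.960 between a High library and another. These are correlations across genes, which are not independent replicates and share the libraries. The lowest, 0.875, joined High replicate 2 and Medium replicate 1, and the highest that involved High, 0.960, joined High replicate 1 and Medium replicate 2. The 5 rows with the most counts were a row of Rps14, Rpl22, Rplp1, Rpl34 and a row of Rpl37, and of these Rpl22 alone had films that did not overlap.

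For 14 symbols the tables hold more than 1 row, 34 rows in all and up to 4 for Rpl35a. The authors counted multiple alignments, so such rows can share reads with each other or with processed pseudogenes, which are frequent for this family, and their values are uncertain to that extent. The 2 most counted rows of Rpl9 had ratios of 0.974 to 1.01 in all libraries, and those of Rpl38 0.977 to 1.01, so they do not count as separate measurements. The fold changes of rows of 1 symbol differed by a median of 0.13 and at most by 0.32 on the log2 scale, for Rpl7a. With 1 row kept per symbol, a choice made after seeing the data, the summed share differed between Low and Medium and High by 0.564 percentage points.

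The other parts of the translation machinery were examined with lists that were fixed by name. Of 22 TOP mRNAs that do not encode ribosomal proteins, 20 were tested and 0 were called by edgeR, with a median log2 fold change of 0.08, and 2 were higher and 2 lower at an unadjusted p under 0.05, where 2.68% and 2.83% of all rows were and 18.8% of the abundant rows were in either direction. Vim, an intermediate filament gene of neural progenitors, had a log2 fold change of 0.57 and Eef1b2, an elongation factor subunit, of 0.45, while Eef1a1, the main elongation factor, had −0.15 and Pabpc1, the poly(A)-binding protein, 0.02. Tpt1, the translationally controlled tumour protein, had −0.72 and Eif3f, an initiation factor subunit, had −1.11. Tpt1 and Eif3f are the 2 rows lower at an unadjusted p under 0.05, and were named after their values were seen. Vim and Eef1b2 had all 4 Low and Medium libraries above High, and Tpt1 and Eif3f had all 4 below. In all, 4 of the 20 rows tested lay above and 2 below. The shares were 7.93% above and 10.2% below over all rows, and 18.8% and 12.2% over the abundant rows. Of 43 ribosome biogenesis genes, 41 were tested and 0 were called, with a median of 0.12 and 2 rows at an unadjusted p under 0.05, where 5.51% of all rows were. Fbl, the methyltransferase fibrillarin of the nucleolus, was at 345 and 478 CPM in High, 714 and 1030 CPM in Medium, and 1111 and 759 CPM in Low. All 4 Low and Medium libraries were above High, with a log2 fold change of 1.13 ± 0.302 (SE) and an adjusted p of 0.498 by edgeR. Ncl (nucleolin), Nop58 and Dkc1, all nucleolar proteins, had log2 fold changes of 0.27, 0.30 and 0.15. These named genes were all positive, whereas of the 41 rows 23 lay above 0 and 18 below.

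Of 21 genes of the TOR pathway and its readers, 16 were tested and 0 were called by edgeR, with 13 log2 fold changes below 0, a median of −0.76 and 3 lower at an unadjusted p under 0.05. Over all 7731 rows, 4196 were below 0, the median was −0.13 and 2.83% were lower at that p. Low counts limit this list, since Mtor, Rptor, Mlst8, Rps6kb1, Rps6kb2, Rps6ka1, Rps6ka3, Pdpk1, Sesn1 and Sesn2 each had a library with 0 counts. Their fold changes are imprecise, with an SE of 2.51 for Pdpk1 and 3.05 for Rps6kb1. Of the 3 lower at that p, Pdpk1 and Sesn2 are among these genes. Rheb, the small GTPase that activates mTOR, was at 353 and 486 CPM in High, 64.7 and 237 CPM in Medium, and 137 and 210 CPM in Low. Both High libraries were above the others for Rheb, with an adjusted p of 0.803 by edgeR. Eif4ebp1 and Eif4ebp2, the translational repressors that mTOR phosphorylates, had log2 fold changes of −0.17 and −0.51, and Ddit4, an inhibitor of mTOR, had −1.12, and their films overlapped. Of 7 genes of ribosome surveillance, Cdkn1a, the cell cycle inhibitor p21, was at 1955 and 1748 CPM in High, 528 and 610 CPM in Medium, and 628 and 833 CPM in Low. It fell in Low and Medium by 1.52 on the log2 scale (adjusted p of 0.0369 by edgeR) and was the single edgeR call in these lists. Mdm2, the ligase that Rpl5 and Rpl11 bind, was at 558 and 446 CPM in High, 296 and 147 CPM in Medium, and 240 and 379 CPM in Low. Both High libraries were above the others, with a log2 fold change of −0.94 ± 0.390 (SE) and an adjusted p of 0.803 by edgeR.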

How the data were processed

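RNA was sequenced from 6 libraries of rNSPCs, 2 for each of 3 films. Per the submitters' processing notes and the methods, the authors aligned the QuantSeq reads with Bowtie2 to rn6 and counted unique and multiple alignments with bedtools. The deposited values are these whole-number counts per gene, without normalization, and versions of these tools are not given in the sources used here. The labels name Trizol and the methods a Ribospin kit for the RNA. No column of other samples was present (0 columns). The 7 ribosomal RNA rows were left out, which took 7.16% to 38.4% of the counts. The counts were filtered with filterByExpr, normalized by TMM and tested with edgeR 4.0.16 (R 4.3.3, limma 3.58.1) by the quasi-likelihood test with Benjamini-Hochberg adjustment over all 7731 rows at 0.05, in 1 fit of the 3 film means. Rows that repeat a symbol were kept apart. The test was tested on simulated data. The alternatives were DESeq2 1.42.0, limma-voom, other scalings and filters, summed symbols, the replicate block, fits on the 2 films compared and leaving out each library.

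The members and the lists were chosen with earlier results of these data known. Genes were named by role, as the 5 highest and the 5 lowest log2 fold changes, the 5 rows with the most counts and any row past the threshold. Genes of the other lists were named mainly by mean count, while Tpt1 and Eif3f were named after their values were seen. Sequences came from RefSeq (GRCr8), in windows of 250 bases before and 50 after each start. A few genes of these lists are not reported here.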

Additional observations from a re-analysis of the deposited data

How the results depend on the processing

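With 2 libraries for a film, an absence of calls does not show that levels were equal, and the number of rows called depended on the tool. For Low and Medium against High, 0 member rows were called by edgeR, 5 by DESeq2, 1 by limma-voom and 1 without a filter on low counts. For Low against High, DESeq2 and limma-voom each called 1 row, and for Medium against High DESeq2 called 6. Over all rows edgeR called 7, DESeq2 345, limma-voom 26, and edgeR with at least 10 counts in every library 27. Over the 11 alternatives for Low and Medium against High, among them that without a filter, 7 to 345 of all rows were called. Leaving out each library in turn gave 0 to 2 member rows for Low and Medium against High, with 2 (Rpl22 and Rps27l) without Low replicate 1, and 0 to 1 for Medium against High. In the same fits 36 to 233 and 9 to 269 of all rows were called, the most without Medium replicate 2. The member rows with no overlap numbered 19 to 47 higher and 7 to 24 lower when 1 library was left out, where 10% to 16.9% of all rows were higher and 12.6% to 23.1% lower. The most were 47 higher without High replicate 1 and 24 lower without High replicate 2. With library sizes alone there were 17 higher and 7 lower, beside 7.72% and 10.7% of all rows, and with RLE factors 16 and 8, beside 7.41% and 11.1% of all rows. These counts were chosen after seeing the data.

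The member median log2 fold change kept its sign in every alternative scaling and filter, and moved by more than the spread between replicates (0.0461) in some. It was 0.015 with DESeq2 and 0.015 with RLE factors for Low and Medium against High, 0.0067 with at least 10 counts in every library, and 0.0131 and 0.0132 for Low against High with DESeq2 and RLE factors. With at least 10 counts in every library it was 0.0239 for Low against High and 0.0478 for Medium against High. With library sizes alone it was 0.0287 for Low against High and −0.11 for Low against Medium, and with rows of 1 symbol summed 0.0433 for Medium against High. Leaving out each library in turn gave 0.0235 to 0.19 for Low and Medium against High, −0.0282 to 0.17 for Low against High, 0.0298 to 0.22 for Medium against High and −0.11 to 0.0158 for Low against Medium, the highest without High replicate 1 for the comparisons with High. With ribosomal RNA in the denominator, the difference in share was 3.65 percentage points.

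Members near 0 changed sign. Rps19 row 1 and Rpl5 were at −0.0451 and −0.0461 with DESeq2, −0.045 and −0.046 with RLE factors, −0.0512 and −0.0528 with at least 10 counts in every library, −0.0235 and −0.0238 with library sizes alone, and −0.0021 and −0.0262 with limma-voom. Rps6 was at −0.0356, −0.0355, −0.0417, −0.0135 and −0.0073 under these 5 settings. The first 2 rows of Rpl39 were at −0.0116 and −0.0168 with DESeq2, −0.0118 and −0.0169 with RLE factors, and −0.0181 and −0.0229 with at least 10 counts in every library. Under the same 3 settings Rps14 row 2 was at −0.0042, −0.0042 and −0.0108 and Rpl37 row 1 at −0.011, −0.0111 and −0.0192. With rows of 1 symbol summed, Rps14 row 1 was at 0.0198 and Rpl39 row 3 at 0.0243, and the latter at 0.0019 with upper-quartile factors. Leaving out each library in turn gave −0.26 to 0.0262 for Rpl10, −0.15 to 0.52 for Rpl13a, −0.19 to 0.14 for Rpl3, −0.0522 to 0.12 for Rpl37 row 1, −0.0147 to 0.11 and −0.0261 to 0.0964 for the first 2 rows of Rpl39, and −0.15 to 0.14 for the third. It gave −0.12 to 0.15 for Rpl5, −0.32 to 0.0112 for Rplp0, −0.40 to 0.0963 for Rplp1, −0.11 to 0.050 and −0.0804 to 0.19 for the rows of Rps14, −0.0603 to 0.0872 for Rps19 row 1 and −0.0897 to 0.14 for Rps6.

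Over all 7731 rows, the deviations of same-numbered libraries correlated at 0.0062 (High and Medium), 0.0025 (High and Low) and 0.0082 (Medium and Low). Replicates of a film differed over these rows by a median absolute log2 ratio of 1.01 to 1.54. Spread of this size could hide a shared deviation, so whether replicate numbers pair the libraries was not decided. With the replicate block, 0 member rows were called in any comparison, the median log2 fold change of Low and Medium against High was 0.0621, and 42 rows were called over all rows.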
